A study of Mus musculus with 3 samples.

Results

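The let-7 and miR-98 guide strands are the 9 mature miRNAs let-7a-5p, let-7b-5p, let-7c-5p, let-7d-5p, let-7e-5p, let-7f-5p, let-7g-5p, let-7i-5p and miR-98-5p. They were taken by name from the 1915 mature mouse miRNAs counted in each of 3 small-RNA libraries, and all 9 were found above 0 in every library. The libraries came from exosomes of B16 cells, from exosomes of JB6 cells and from B16 cells themselves, with 1 library for each group. The B16 line was derived from a mouse melanoma, and its cells and exosomes are both labelled with strain C57BL/6J, tissue skin and disease state melanoma. JB6 is a mouse skin line, labelled as strain BALB/c, tissue skin and disease state normal. Exosomes are small vesicles that cells release, collected in this study by ultracentrifugation. Strain, line and disease state therefore changed together between the exosome libraries and cannot be told apart, and no library of JB6 cells was analysed here.

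A guide strand is the arm of a miRNA hairpin that is loaded into an Argonaute protein, where its seed, bases 2 to 8 from the 5′ end, pairs with messenger RNAs and lowers their output. let-7 was found in the worm Caenorhabditis elegans as a timer of development, and in mammals the family rises as cells differentiate and holds down growth genes such as Hmga2. Its maturation is blocked by the RNA-binding proteins Lin28a and Lin28b, which are themselves targets of let-7. In skin and melanoma the family is mostly described as a restraint on growth.

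The 9 sequences are shown because members differ by so few bases that their counts have to be read together. They are RefSeq entries of the mouse build GRCm38.p6, written 5′ to 3′ with the seed in capitals.
let-7a-5p: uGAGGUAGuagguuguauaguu
let-7b-5p: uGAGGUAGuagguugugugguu
let-7c-5p: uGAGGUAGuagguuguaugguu
let-7d-5p: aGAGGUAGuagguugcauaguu
let-7e-5p: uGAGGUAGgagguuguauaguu
let-7f-5p: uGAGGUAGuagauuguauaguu
let-7g-5p: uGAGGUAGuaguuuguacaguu
let-7i-5p: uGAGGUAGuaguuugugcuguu
miR-98-5p: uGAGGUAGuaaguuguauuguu
All 9 are 22 bases long and share 1 seed. They are alike at 14 of the 22 positions and differ at 8. With positions counted from 1 at the 5′ end and let-7a-5p as the start, let-7c-5p has A19G, let-7e-5p has U9G and let-7f-5p has G12A. let-7b-5p has A17G beyond let-7c-5p. These 5 form a chain of neighbours that differ at 1 base each, while let-7d-5p, let-7g-5p, let-7i-5p and miR-98-5p differ from every other member at 2 or more. No source used here says how reads that match several members were shared out, so values of members in the chain are uncertain as separate entries.

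The 9 members are made from 12 hairpins of the build GRCm38, placed here by RefSeq and annotated by GENCODE M21. let-7a-5p comes from Mirlet7a-1 at chr13:48538179-48538272 and Mirlet7a-2 at chr9:41536716-41536811. Mirlet7a-1, Mirlet7f-1 (chr13:48537829-48537917) and Mirlet7d (chr13:48536012-48536114) follow each other in an exon of the long non-coding RNA 6720427I07Rik. Mirlet7c-2 (chr15:85706603-85706697) and Mirlet7b (chr15:85707319-85707403) lie 621 bases apart in an exon of the non-coding transcript Lncppara. Mirlet7f-2 (chrX:151912346-151912428) and Mir98 (chrX:151913214-151913321) lie in an intron of Huwe1, which encodes a ubiquitin ligase. Mirlet7c-1 (chr16:77599657-77599750) lies in an intron of Mir99ahg, Mirlet7e (chr17:17830352-17830444) in an intron of Spaca6 and Mirlet7a-2 in an intron of 3110039I08Rik. Mirlet7g (chr9:106178840-106178927) lies in an intron of Wdr82, and Mirlet7i (chr10:122985640-122985724) in an exon of the transcribed pseudogene D630033A02Rik.

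Depth differed widely between the libraries, with 45677 reads of miRNAs in B16 exosomes, 4495956 in JB6 exosomes and 7925726 in B16 cells. No listed count was below 10, so a listed 0 stands for up to 9 reads, which is 197 RPM of miRNA reads, a scale on which all miRNA reads of a library sum to 1000000, in B16 exosomes, 2.002 in JB6 exosomes and 1.14 in B16 cells. The melanocyte miRNA miR-211-5p had 83 reads in B16 exosomes, a listed 0 in JB6 exosomes and 21080 reads in B16 cells. The other melanocyte markers were scarce, as miR-204-5p had a listed 0 in B16 exosomes, 14 reads in JB6 exosomes and 60 in B16 cells, and miR-137-3p was at 0 in all 3. Of 7 keratinocyte and epithelial markers, 0 were listed in B16 exosomes, 2 in JB6 exosomes with 35 reads in sum and 4 in B16 cells with 197 reads, and miR-205-5p, miR-141-3p and miR-429-3p were at 0 in every library. These markers therefore do not show the skin origin that the JB6 library is labelled with. A liver list of 3 miRNAs held 0.0963% of miRNA reads in B16 exosomes, 25.2% in JB6 exosomes and 0.0686% in B16 cells. Nearly all of this in JB6 exosomes was miR-122-5p with 1129522 reads. miR-192-5p was higher there than in B16 cells, at 1221.5 and 523 RPM of miRNA reads, and miR-194-5p lower, at 28.2 and 110. Of 3 red cell markers 0, 3 and 2 were listed in B16 exosomes, JB6 exosomes and B16 cells, with 0, 33620 and 166 reads in sum. Of 3 muscle markers 0, 3 and 1 were listed, with 0, 16665 and 11 reads. In JB6 exosomes 1 miRNA made up nearly all of each sum, miR-486a-5p with 32994 reads and miR-206-3p with 16619. The others had few reads there, with miR-451a at 606, miR-144-3p at 20, miR-1a-3p at 21 and miR-133a-3p at 25. Of 4 leukocyte markers 0, 3 and 1 were listed, with 0, 69 and 10 reads. The part of these other cell types in the results below was not tested. Shares of a library sum to a fixed total, so family ratios are also given below with miR-122-5p and miR-148a-3p, another abundant miRNA of JB6 exosomes, left out of that total.

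The family was a leading component of both B16 libraries and a small one in JB6 exosomes. Its 9 members held 17368 reads or 38.0% of miRNA reads in B16 exosomes (exact Clopper-Pearson 95% interval 37.6 to 38.5), 161660 reads or 3.60% in JB6 exosomes (3.58 to 3.61) and 2839010 reads or 35.8% in B16 cells (35.79 to 35.85). Intervals here and below cover counting error only. With no replicate library in any group, no test across libraries was possible and a spread between cultures is unknown. The RPM column that the authors deposited uses larger totals, of which the family held 2.05% in B16 exosomes, 2.87% in JB6 exosomes and 32.6% in B16 cells. No source used here says what else those totals count.

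let-7i-5p, which is made from a single hairpin, was the most abundant of all miRNAs in B16 exosomes with 8014 reads and in B16 cells with 1244154, while with 40626 reads in JB6 exosomes it was rank 19. let-7f-5p had 4327 reads in B16 exosomes, 10533 in JB6 exosomes and 471792 in B16 cells, which placed it at ranks 2, 40 and 3. let-7g-5p, made from a hairpin in Wdr82, had 1450, 2923 and 435285 reads in the same libraries, at ranks 9, 64 and 5. All 3 ranked higher in both B16 libraries than in JB6 exosomes. let-7b-5p, an inhibitor of Hmga2 in mouse neural stem cells, had 476 reads in B16 exosomes, 58471 in JB6 exosomes and 92385 in B16 cells. Its shares of 1.04%, 1.30% and 1.17% of miRNA reads were close together, and at rank 13 it led the family in JB6 exosomes. let-7c-5p held 5.03% of miRNA reads in B16 exosomes, 0.768% in JB6 exosomes and 4.67% in B16 cells.

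let-7a-5p, the form whose sequence is identical from worms to mammals, held 1.22% of miRNA reads in B16 exosomes, 0.256% in JB6 exosomes and 1.91% in B16 cells. let-7d-5p, a restraint on Hmga2 in human lung fibrosis, had 98, 1033 and 43872 reads in B16 exosomes, JB6 exosomes and B16 cells. miR-98-5p had 101, 336 and 18294 reads, and let-7e-5p had 46, 1702 and 11265. The last 3 of these stayed below 1% of miRNA reads in every library, and with fewer than 110 reads in B16 exosomes their values there are the least precise of the family.

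**Figure D1:**
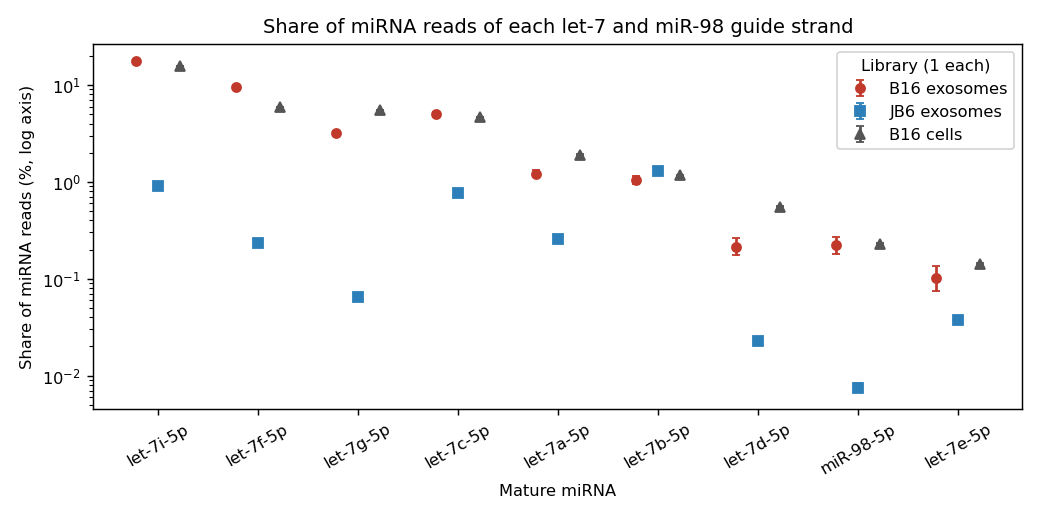
Share of miRNA reads (%, log axis) of the 9 guide strands in the 3 libraries, with exact 95% intervals (many are smaller than the symbol), ordered by reads in B16 cells. JB6 exosomes lie below both B16 libraries for 8 members, and let-7b-5p is at 1.04% in B16 exosomes, 1.30% in JB6 exosomes and 1.17% in B16 cells.

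Within the family, the order of members was read from the split of reads between neighbours. From most to least abundant, B16 exosomes had let-7i, let-7f, let-7c, let-7g, let-7a, let-7b, miR-98, let-7d and let-7e. Only miR-98-5p and let-7d-5p, with 101 and 98 reads, were not apart beyond counting error there, at a ratio of 1.03 (0.773 to 1.38). JB6 exosomes had let-7b, let-7i, let-7c, let-7a, let-7f, let-7g, let-7e, let-7d and miR-98. B16 cells had let-7i, let-7f, let-7g, let-7c, let-7a, let-7b, let-7d, miR-98 and let-7e. In these deep libraries every neighbouring pair was apart beyond counting error. The first 4 members of each order held 92.6% of family reads in B16 exosomes, 89.8% in JB6 exosomes and 88.8% in B16 cells.

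**Figure D2:**
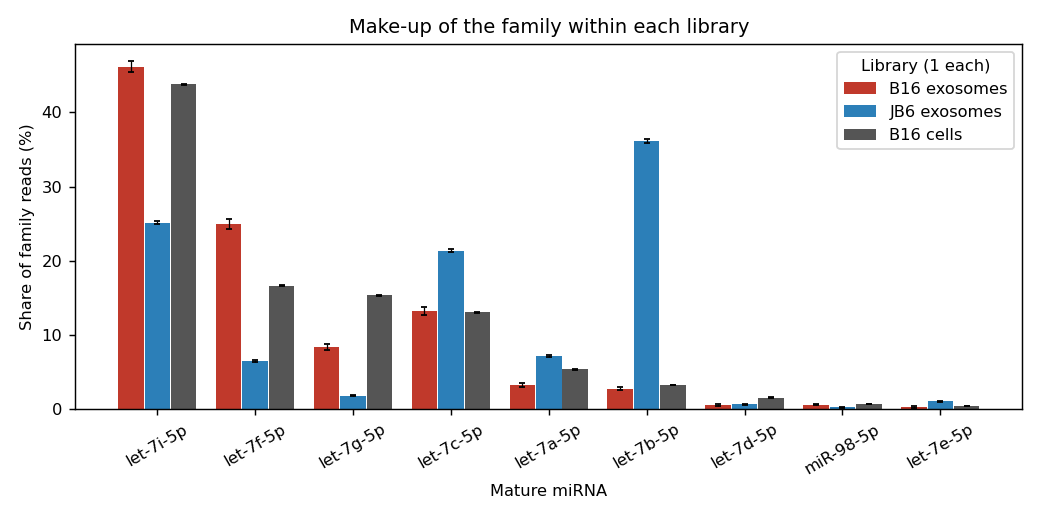
Share of the family's reads (%) taken by each guide strand in each library, as bars from 0 with exact 95% intervals. let-7i-5p is the highest bar in B16 exosomes (46.1%) and in B16 cells (43.8%), and let-7b-5p is the highest in JB6 exosomes (36.2%).

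B16 exosomes were set against B16 cells, which asks whether the vesicles carry the family as the cells hold it. By total miRNA reads the family held a near equal share in both, at a ratio of 1.06 (1.05 to 1.08). Of the 9 members, 1 was lower and 0 were higher by the rule of a 2-fold ratio with an interval that excludes 1. Among the 422 miRNAs that had at least 30 reads in this pair the same rule called 7.82% lower and 8.53% higher, with 267 not resolved because of a listed 0. Among the 144 that were listed in both libraries, as all 9 members are, it called 15.97% lower and 24.3% higher, against 11.1% and 0% of the members. The member called lower was let-7d-5p, with 2146 RPM of miRNA reads in B16 exosomes against 5535 in B16 cells and a ratio of 0.388 (0.315 to 0.472). The median log2 ratio was -0.16 over the members and 0.03 over those 144. Scaling changed the calls here as well. TMM factors, which moved every log2 ratio by -1.02, gave a family ratio of 0.524 with 6 members lower, where 93 of all 422 miRNAs were lower and 16 higher. The authors' totals, with a shift of -4.08, gave 0.0629 with all 9 members lower, where 257 of 422 were lower and 9 higher.

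The make-up of the family, which does not depend on how the libraries are scaled, differed somewhat between the vesicles and the cells. By the 2-fold rule only let-7d-5p was called. The interval alone excluded 1 for 7 of 9 members, but at this depth it does so even for a ratio of 1.05. A share of family reads has no counterpart for other miRNAs, so no background stands beside this count. let-7f-5p took 24.9% of family reads in B16 exosomes (24.3 to 25.6) against 16.6% in B16 cells (16.57 to 16.66), a ratio of 1.499 (1.45 to 1.54). let-7g-5p took 8.35% (7.94 to 8.77) against 15.3% (15.29 to 15.37), a ratio of 0.545 (0.517 to 0.573). let-7a-5p took 3.21% against 5.34%, a ratio of 0.601 (0.552 to 0.653). let-7f-5p thus had a larger part of the family in the vesicles than in the cells, and let-7g-5p and let-7a-5p a smaller one. let-7d-5p took 0.564% in B16 exosomes against 1.55% in B16 cells, a ratio of 0.365 (0.296 to 0.445). let-7e-5p and let-7b-5p were lower by less, at ratios of 0.667 (0.488 to 0.891) and 0.842 (0.768 to 0.922), and let-7i-5p was higher at 1.05 (1.03 to 1.08). For let-7c-5p, at 1.01 (0.973 to 1.06), and miR-98-5p, at 0.902 (0.735 to 1.10), the interval held 1. In sum 10.8% of family reads sat with a different member in B16 exosomes than in B16 cells.

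B16 exosomes were also set against JB6 exosomes, which asks how vesicles of the melanoma line differ from those of the line labelled normal. The family total was 10.6-fold higher in B16 exosomes (10.4 to 10.7). Of the 9 members, 8 were higher and 0 lower, where the rule called 31.3% of 300 miRNAs higher and 11.7% lower. The members' 88.9% stands beside 67.2% among the 131 tested miRNAs that were listed in both libraries, because a listed 0 in the shallow library often leaves a miRNA uncalled. The median log2 ratio was 3.22 over the members and 2.62 over those 131. let-7g-5p had 31745 RPM of miRNA reads in B16 exosomes against 650 in JB6 exosomes, a ratio of 48.8 (45.8 to 52.02), and miR-98-5p had 2211 against 74.7, a ratio of 29.6 (23.4 to 37.1). At the other end let-7e-5p had 1007 against 379, a ratio of 2.66 (1.94 to 3.56), and let-7b-5p had 10421 against 13005, a ratio of 0.801 (0.731 to 0.877). The excess was therefore unequal along the family, from none for let-7b-5p to the largest ratios for let-7g-5p and let-7f-5p.

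Scaling decided how many members counted as higher in B16 exosomes than in JB6 exosomes. TMM factors left 4 higher and 1 lower, DESeq2 size factors 4 and 2, and the authors' totals 2 and 4. let-7b-5p was among those lower each time, at ratios of 0.155, 0.123 and 0.0540. Over all 300 miRNAs tested the counts of higher and lower were 94 and 35 with total miRNA reads, 61 and 97 with TMM, 57 and 109 with DESeq2 and 40 and 153 with the authors' totals. These scalings moved every log2 ratio by -2.37, -2.70 and -3.89. The family ratio was 2.05 with TMM, 1.62 with DESeq2, 5.63 with miR-122-5p and miR-148a-3p left out of the total, and 0.713 with the authors' totals. let-7f-5p and let-7g-5p were above 2-fold under all of these scalings, with lowest ratios of 2.73 and 3.29.

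The family's make-up differed strongly between the exosome libraries under any scaling, since each library is then its own reference. let-7b-5p took 2.74% of family reads in B16 exosomes (2.503 to 2.99) against 36.2% in JB6 exosomes (35.9 to 36.4), a ratio of 0.0758 (0.0691 to 0.0829). let-7g-5p took 8.35% against 1.81%, a ratio of 4.62 (4.33 to 4.92). let-7f-5p took 24.9% against 6.52%, a ratio of 3.82 (3.69 to 3.96). let-7b-5p, the leading member in JB6 exosomes, was thus a minor one in B16 exosomes, and the reverse held for let-7f-5p, which in B16 exosomes came next after let-7i-5p. miR-98-5p was higher as well, at 2.80 (2.22 to 3.505), and let-7i-5p at 1.84 (1.79 to 1.88). let-7e-5p was lower at 0.252 (0.183 to 0.337), let-7a-5p at 0.451 (0.414 to 0.491) and let-7c-5p at 0.619 (0.594 to 0.646). The interval of let-7d-5p, 0.883 (0.710 to 1.09), held 1. Of the family's reads 46.3% sat with a different member, against the 10.8% between B16 exosomes and their cells.

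**Figure D3:**
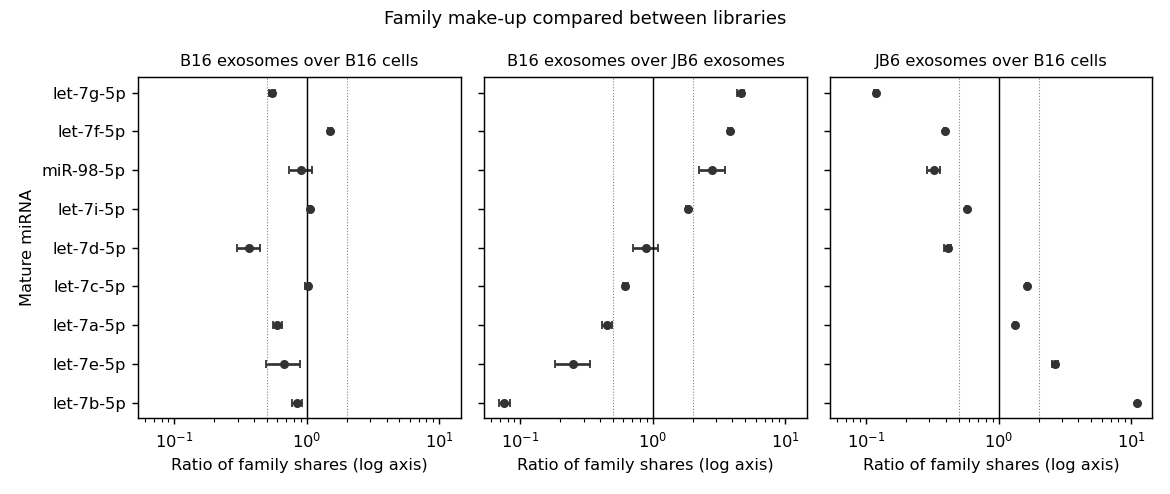
Ratio of each guide strand's share of family reads between 2 libraries (log axis) with exact 95% intervals, ordered by the ratio of B16 exosomes over JB6 exosomes. The solid line marks 1 and the dotted lines mark 2-fold. Ratios lie between 0.365 and 1.499 for B16 exosomes over B16 cells, between 0.0758 and 4.62 for B16 exosomes over JB6 exosomes, and between 0.118 and 11.1 for JB6 exosomes over B16 cells.

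JB6 exosomes against B16 cells is the comparison with the greatest depth, although line, strain, disease state and the vesicle or cell source all change in it, and it shares its libraries with the comparisons above. The family total had a ratio of 0.100 (0.0999 to 0.101), and 8 of 9 members were lower and 0 higher, where the rule called 60.7% of 501 miRNAs lower and 26.1% higher, which sets the members' 88.9% above a background that is itself mostly lower. The median log2 ratio was -4.12 over the members and -1.47 over the 305 tested miRNAs listed in both. let-7g-5p had 650 RPM of miRNA reads in JB6 exosomes against 54921 in B16 cells, a ratio of 0.0118 (0.0114 to 0.0123). let-7b-5p had 13005 against 11656, a ratio of 1.12 (1.10 to 1.13). These lie 94.3-fold apart, so the members did not follow each other. DESeq2 size factors, which moved every log2 ratio by 2.58, left 5 members lower and let-7b-5p higher, and TMM factors, with a shift of 1.35, left 7 lower and let-7b-5p higher. Over all 501 miRNAs the counts of higher and lower were 131 and 304 with total miRNA reads, 165 and 202 with TMM and 204 and 134 with DESeq2.

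Ratios between members that differ by few bases were compared inside each library, where depth and scaling drop out. Per read of let-7a-5p there were 7.77 reads of let-7f-5p in B16 exosomes (7.11 to 8.50), 0.916 in JB6 exosomes (0.892 to 0.941) and 3.11 in B16 cells (3.09 to 3.13). These members differ by G12A. let-7c-5p, which differs from let-7a-5p by A19G, had 4.13 reads per read of let-7a-5p in B16 exosomes (3.76 to 4.54), 3.01 in JB6 exosomes (2.94 to 3.07) and 2.44 in B16 cells (2.43 to 2.46). let-7c-5p exceeded let-7a-5p in every library, whereas let-7f-5p and let-7a-5p changed places in JB6 exosomes. let-7b-5p and let-7c-5p, which differ by A17G and have neighbouring hairpins on chromosome 15, also changed places. There were 0.207 reads of let-7b-5p per read of let-7c-5p in B16 exosomes (0.187 to 0.229), 1.69 in JB6 exosomes (1.67 to 1.72) and 0.249 in B16 cells (0.248 to 0.251). When the 5 members of the chain were summed, they held 44.4% of family reads in B16 exosomes (43.6 to 45.1), 72.2% in JB6 exosomes (71.99 to 72.4) and 38.7% in B16 cells (38.6 to 38.7). The sum is unchanged only by moves of reads inside the chain. let-7d-5p, let-7g-5p and miR-98-5p each differ from let-7a-5p at 2 bases, and moves of reads between them and the chain were not tested.

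Members with neighbouring hairpins did not keep a common ratio. let-7d-5p, from the same transcript as a hairpin of let-7a-5p, had 0.176 reads per read of let-7a-5p in B16 exosomes (0.140 to 0.218), 0.0899 in JB6 exosomes (0.0843 to 0.0958) and 0.289 in B16 cells (0.286 to 0.292). miR-98-5p had 0.0233 reads per read of let-7f-5p in B16 exosomes (0.01897 to 0.0284), 0.0319 in JB6 exosomes (0.0285 to 0.0356) and 0.0388 in B16 cells (0.0382 to 0.0394). The let-7f-5p and let-7a-5p counts each add up more than 1 hairpin, so the output of a single cluster cannot be read from them.

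let-7e-5p shares its locus with miR-125a-5p and miR-99b-5p, miRNAs of other seeds. It had 0.359 reads per read of miR-99b-5p in B16 exosomes (0.251 to 0.507), 0.0117 in JB6 exosomes (0.0111 to 0.0123) and 0.193 in B16 cells (0.189 to 0.197). Against miR-125a-5p it had 2.42 (1.39 to 4.38), 0.122 (0.116 to 0.128) and 1.24 (1.21 to 1.28). The JB6 library thus held few let-7e-5p reads beside both partners of its cluster. let-7c-5p had 2.67 reads per read of miR-99a-5p, its neighbour on chromosome 16, in B16 exosomes (2.47 to 2.89), 0.394 in JB6 exosomes (0.389 to 0.399) and 2.26 in B16 cells (2.25 to 2.27). The let-7c-5p count also includes Mirlet7c-2 on chromosome 15, so the output of the chromosome 16 locus cannot be read from it. let-7a-5p had 2.33 reads per read of miR-100-5p in B16 exosomes (1.999 to 2.72), 0.261 in JB6 exosomes (0.256 to 0.266) and 90.8 in B16 cells (86.5 to 95.3). Here B16 exosomes stood closer to JB6 exosomes than to their own cells. miR-100-5p had 239 reads in B16 exosomes, 44046 in JB6 exosomes and 1670 in B16 cells. These were 0.523%, 0.980% and 0.0211% of the miRNA reads of each library. let-7c-5p had 128 reads per read of miR-125b-5p in B16 exosomes (80.6 to 216), 2.38 in JB6 exosomes (2.34 to 2.43) and 64.1 in B16 cells (62.5 to 65.8).

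The 9 members accounted for nearly all listed reads with this seed. let-7k, an entry with the same seed, was listed at 0 in both exosome libraries and had 18 reads in B16 cells. miR-1961, also of this seed, was listed at 0 in all 3 libraries. let-7j, which carries the let-7 name with another seed, had a listed 0 in both exosome libraries and 245 reads in B16 cells, or 30.9 RPM of miRNA reads.

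Base composition moved with the members' ratios in both comparisons that use the JB6 library, and only weakly between B16 exosomes and B16 cells. G and C made up 31.8% of let-7f-5p and miR-98-5p, 36.4% of let-7a-5p and let-7g-5p, 40.9% of let-7c-5p, let-7d-5p, let-7e-5p and let-7i-5p, and 45.5% of let-7b-5p. For B16 exosomes over JB6 exosomes the log2 ratio and the G and C share had a Pearson coefficient of -0.77 and a Spearman coefficient of -0.72 over the 9 members, and -0.16 and -0.24 over 108 other miRNAs listed in both. For JB6 exosomes over B16 cells the coefficients were 0.69 and 0.77 over the members and 0.27 and 0.30 over 264 other miRNAs. For B16 exosomes over B16 cells they were -0.28 and -0.18 over the members and 0.19 and 0.03 over 119 others. All points of a comparison share the same pair of libraries, and members share most of their sequence. At 1 and the same G and C share, let-7a-5p and let-7g-5p had ratios of 4.77 and 48.8 for B16 exosomes over JB6 exosomes, so the members also differed at equal composition. Whether base composition has a part in the difference between the libraries was not tested.

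**Figure D4:**
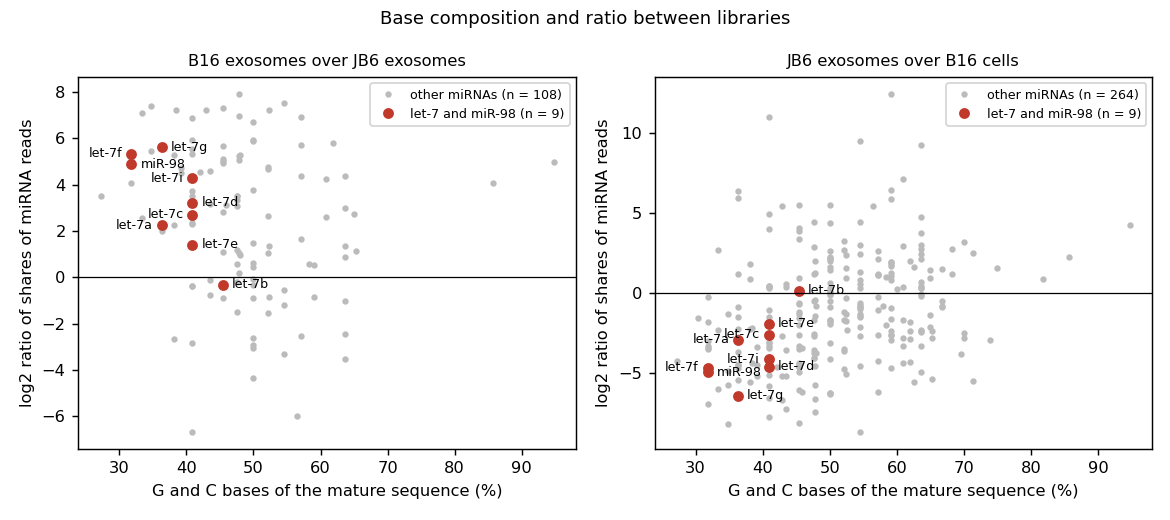
log2 ratio of shares of miRNA reads against the percentage of G and C bases in the mature sequence, for B16 exosomes over JB6 exosomes (left) and JB6 exosomes over B16 cells (right). Red points are the 9 guide strands and grey points the 108 and 264 other miRNAs with a sequence that were listed in both libraries. let-7b-5p, with the highest G and C share of the family, has the family's lowest ratio on the left and its highest on the right.

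The miRNAs whose shares followed the family total most closely over the 3 libraries were miR-181b-5p, miR-181d-5p, miR-1843a-5p, miR-1843b-5p and miR-148b-3p. Likeness was the Euclidean distance between log2 shares centred on their own mean, over 3 libraries and 123 other miRNAs listed in all of them with 100 or more reads. The distances were 0.28, 0.30, 0.32, 0.39 and 0.43. Among the members let-7c-5p at 0.57, let-7i-5p at 0.69 and let-7a-5p at 0.82 were nearest to the total, while let-7g-5p at 2.25 and let-7b-5p at 2.94 were farthest. miR-181b-5p had 62 reads in B16 exosomes, 708 in JB6 exosomes and 13157 in B16 cells. miR-1843a-5p and miR-1843b-5p each had 14 reads in B16 exosomes, so their place in this order is imprecise.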

How the data were processed

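Each library was deposited as a table of mature miRNAs. The count per miRNA was made by the authors, per the file headers, and is not normalized. A second column holds an RPM value that the authors computed, which equals the count times 1 constant per library and rests on a total of 847694 reads in B16 exosomes, 5626936 in JB6 exosomes and 8721363 in B16 cells. Per the submitters' processing notes, bcl2fastq, BWA and build mm10 were used. No source used here gives versions, trimming, annotation release, strand or the handling of reads that match several miRNAs. Every entry had a name.

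From the counts, shares of total miRNA reads and of the 9 members were computed with exact Clopper-Pearson 95% intervals, and ratios of shares with the exact conditional binomial interval (scipy 1.17.1, pandas 2.3.3). Reads here carry no stated molecular identifier and may repeat 1 molecule, so intervals cover counting error only. A miRNA with 30 or more reads over a pair of libraries was called at a ratio of at least 2-fold with an interval that excludes 1, and a listed 0 was set to 9 reads. All 9 members passed this minimum in every comparison. Alternatives were TMM factors (edgeR 4.0.16), DESeq2 1.42.0 size factors, other totals and other call rules. Sequences came from RefSeq (all 9 members matched), and positions from RefSeq and GENCODE M21 on GRCm38, the genome that mm10 names. The named miRNAs were the members, entries with the same seed, cluster partners, the 5 nearest profiles and the most abundant miRNA of each library, with markers for the check of cell types. miR-148a-3p, left out of 1 total, and let-7j, of another seed, were named outside this rule. Members, lists and rules were chosen with earlier results of these data known.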

Additional observations from a re-analysis of the deposited data

How the results depend on the processing

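The cause of these changes was not tested. The family ratio of B16 exosomes over B16 cells was 0.524 with TMM factors, 0.973 with DESeq2 size factors, 1.12 without the most abundant miRNAs, 0.0629 with the authors' totals, 1.099 against all other miRNAs and 1.02 without let-7i-5p. For B16 exosomes over JB6 exosomes it was 2.05, 1.62, 7.25, 0.713 (a reversal), 16.4 and 7.61 in the same settings, and 5.63 without miR-122-5p and miR-148a-3p. For JB6 exosomes over B16 cells it was 0.256, 0.600, 0.155, 0.0883, 0.0668 and 0.134, and 0.189 without miR-122-5p and miR-148a-3p. Of the members, in B16 exosomes against B16 cells 6 were lower with TMM, beside 93 of all 422 miRNAs. With the authors' totals 9 were lower, beside 257. A 1.5-fold rule called 1 higher and 3 lower, with no share over all miRNAs computed to set beside it. In B16 exosomes against JB6 exosomes 4 were higher and 1 lower with TMM, 4 and 2 with DESeq2, and 2 and 4 with the authors' totals. Without miR-122-5p and miR-148a-3p 7 were higher and 1 lower, beside 81 and 50 of all 300 miRNAs. With 1-base neighbours summed all 5 remaining entries were higher, again with no share over all miRNAs computed. In JB6 exosomes against B16 cells 1 was higher with TMM, with DESeq2 and without miR-122-5p and miR-148a-3p. Of all 501 miRNAs, 165, 204 and 156 were higher in these settings. With DESeq2 5 members were lower, beside 134 of all miRNAs. With 1-base neighbours summed 5 entries were lower, again with no share over all miRNAs computed. Without summing, 304 of all 501 miRNAs were lower by total miRNA reads.

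Reversals of members are named here only where the 2-fold rule had called the member with total miRNA reads. Single members reversed in B16 exosomes over JB6 exosomes. These were let-7a-5p, at 0.924 with TMM, 0.732 with DESeq2 and 0.322 with the authors' totals, let-7e-5p, at 0.515, 0.408 and 0.179, and, with the authors' totals, let-7c-5p at 0.442 and let-7d-5p at 0.630. let-7e-5p in JB6 exosomes over B16 cells reversed to 1.59 with DESeq2. Ratios that were not called also crossed 1 in some settings. For example, in B16 exosomes over B16 cells let-7f-5p went from 1.59 to 0.785 with TMM, and let-7i-5p from 1.12 to 0.552. In B16 exosomes over JB6 exosomes let-7b-5p went from 0.801 to 1.25 with the 9 members left out of the total. Other settings moved it away from 1, to 0.549 without the most abundant miRNAs and 0.427 without miR-122-5p and miR-148a-3p. It was 0.155 with TMM, 0.123 with DESeq2 and 0.0540 with the authors' totals. Member-level scalings were chosen after the data were seen. The make-up of the family does not depend on scaling. Leaving let-7i-5p out of the family total moved 18 of 24 ratios of family shares beyond their intervals and reversed 0 of those called. It ended 2 calls, let-7a-5p in B16 exosomes over JB6 exosomes at 0.627 and let-7e-5p in JB6 exosomes over B16 cells at 1.99. Ratios that were not called crossed 1 as well. let-7d-5p in B16 exosomes over JB6 exosomes went from 0.883 to 1.23. let-7a-5p in JB6 exosomes over B16 cells went from 1.33 to 0.999. The share of all miRNAs called stayed within 1.5 times under other read minimums. No paired analysis was possible because each group holds 1 library. The 45677 miRNA reads of B16 exosomes limit let-7d-5p, let-7e-5p and miR-98-5p most.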

Other observations

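The bases at positions 11 and 12 divided the members by their ratio in B16 exosomes over JB6 exosomes, a division chosen after the values were seen and therefore given with no test. The 5 members with G at both positions (let-7a-5p, let-7b-5p, let-7c-5p, let-7d-5p and let-7e-5p) had ratios between 0.801 and 9.34, and the other 4 (let-7f-5p, let-7g-5p, let-7i-5p and miR-98-5p) between 19.4 and 48.8. In JB6 exosomes over B16 cells the ranges were 0.0415 to 1.12 and 0.0118 to 0.0576, which overlap through let-7d-5p. Over other miRNAs with a sequence, the median log2 ratio of B16 exosomes over JB6 exosomes was 0.59 for 7 with G at both positions and 3.07 for 101 without. For JB6 exosomes over B16 cells it was 0.33 for 17 and -1.47 for 247. For B16 exosomes over B16 cells it was 0.64 for 7 and -0.07 for 112, and the members' ranges of 0.388 to 1.08 and 0.578 to 1.59 overlapped. These are small numbers of miRNAs from the same pairs of libraries.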
